A study of Mus musculus with 23 samples.

Results

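The genes described here are 7 genes of cholesterol synthesis in mouse embryonic stem cells (ESCs): *Idi1*, *Sqle*, *Lss*, *Cyp51*, *Ebp*, *Dhcr7* and *Insig1*. They were chosen by name, 8 in all, because metabolites of tamoxifen bind the sterol isomerase *Ebp* and 4-hydroxytamoxifen (4OHT) is the drug that induces the knockout in this system. A row under the GENCODE symbol was used for 7 of the 8, and *Hmgcs1* was not analysed here. The 7 genes are part of 37310 genes counted and of 14346 genes that passed the filter on low counts, more than 1 CPM (reads of a gene scaled to the size of its library) in at least 3 libraries, which all 7 did.

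RNA-seq was done on 9 libraries, 3 biological replicates for each of 3 groups, after 48 h of treatment. All cells derive from the E14 ESC line. The EtOH control and the *Zbtb11* KO are 1 engineered line, in which both *Zbtb11* alleles carry loxP sites around exon 3 and the *Rosa26* locus carries ERt2-Cre (*Zbtb11* lox/lox *Rosa26* ERt2-Cre): the former received the carrier ethanol, the latter 250 nM 4OHT, which lets the Cre fusion protein delete the exon. This line was isolated through single-cell colonies. The 4OHT control is *Zbtb11* WT/WT *Rosa26* WT and received 250 nM 4OHT. Set against the EtOH control, the 4OHT control thus has another genotype and another treatment, and the *Zbtb11* KO has both the drug and the deletion. In neither comparison can the contributions be told apart. Wild-type cells given ethanol were not analysed here. Zbtb11 binding came from ChIP-seq in untreated E14 cells, 4 libraries with an anti-Zbtb11 antibody in Zbtb11 WT/WT cells and 3 with an anti-FLAG antibody in a Zbtb11 FLAG/FLAG line, whose endogenous protein carries the tag.

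Cells make cholesterol from acetyl-CoA through mevalonate, isoprenoid diphosphates and squalene, and then through a series of sterols that are demethylated, isomerised and reduced. When sterols run low in the endoplasmic reticulum, SREBP-2 (*Srebf2*), escorted by *Scap*, moves to the Golgi. There it is cut first by the site-1 protease (*Mbtps1*) and then by the site-2 protease (*Mbtps2*), and the freed domain activates the genes of the pathway. *Insig1*, itself a target, holds the complex back when sterols are plentiful. Promoters of this pathway are known for sterol regulatory elements next to CCAAT boxes and GC boxes, the sites of NF-Y and Sp1.

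The libraries held 14301457 to 23876604 reads on genes. All 6 ESC markers (*Pou5f1*, *Nanog*, *Sox2*, *Zfp42*, *Klf4* and *Esrrb*) were detected in every group, and together reached 2936 to 3453 CPM. The 4 markers of primitive endoderm summed to 4.60 to 9.93 CPM, the 3 of trophectoderm to 2.48 to 4.08 CPM and the 4 of fibroblasts to 16.0 to 26.3 CPM. *Postn*, of the fibroblast list, had 0 or 1 reads in each library of all groups. None of the ESC markers passed the test by group described below, and with the replicate number as a block none passed in the KO against the EtOH control, while 3 were higher and 1 was lower in the 4OHT control than in the EtOH control (17% and 16.5% of all genes were so called). *Eomes*, of the trophectoderm list, was lower in the KO than in the 4OHT control (adjusted p = 0.0287, edgeR), as were 3.72% of all genes. Its mean was low, at 2.51 CPM in the EtOH control, 2.13 in the KO and 3.57 in the 4OHT control. It did not pass in the KO against the EtOH control. With the block it was higher in the 4OHT control than in the EtOH control (log2 fold change 0.51 ± 0.17, SE, adjusted p = 0.0234, edgeR). Replicate 1 stood apart across the groups: 18.3% of the genes tested were higher in the 3 replicate 1 libraries than in each of the other 6, and 17.5% were lower.

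The upstream sequences of *Sqle* and *Insig1* are shown because they hold the core of the sterol regulatory element, that of *Ebp* because 4OHT-related compounds bind its protein, and that of *Mbtps2* because its start lies under a Zbtb11 peak and its RNA was lower in the KO. Each run gives the 250 bases before the outermost annotated start, 5′ to 3′ on the gene's strand (mm9): *Sqle* at chr15:59146382-59146631 (plus strand), *Insig1* at chr5:28397702-28397951 (plus strand), *Ebp* at chrX:7770639-7770888 (minus strand) and *Mbtps2* at chrX:154036648-154036897 (minus strand). In the first 3, capitals mark CCAAT and the sterol regulatory element core CACNCCAC on either strand. In *Mbtps2*, capitals mark CCGGAAG, the core of sites for Ets factors such as GABP.
Sqle: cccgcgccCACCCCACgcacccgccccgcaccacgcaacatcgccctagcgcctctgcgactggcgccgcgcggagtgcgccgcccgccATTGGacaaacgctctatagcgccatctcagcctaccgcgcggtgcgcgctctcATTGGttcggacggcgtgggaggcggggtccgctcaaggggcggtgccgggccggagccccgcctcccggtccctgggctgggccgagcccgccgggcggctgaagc
Insig1: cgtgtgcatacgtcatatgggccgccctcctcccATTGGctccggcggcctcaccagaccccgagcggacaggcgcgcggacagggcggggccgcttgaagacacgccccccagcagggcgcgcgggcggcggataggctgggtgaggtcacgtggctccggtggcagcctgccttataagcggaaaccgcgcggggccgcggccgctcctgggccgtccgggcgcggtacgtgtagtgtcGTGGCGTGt
Ebp: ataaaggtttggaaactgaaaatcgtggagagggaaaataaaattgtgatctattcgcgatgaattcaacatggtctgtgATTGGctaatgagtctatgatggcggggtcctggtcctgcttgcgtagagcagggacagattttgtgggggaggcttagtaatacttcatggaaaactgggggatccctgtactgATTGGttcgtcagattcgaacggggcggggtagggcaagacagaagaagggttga
Mbtps2: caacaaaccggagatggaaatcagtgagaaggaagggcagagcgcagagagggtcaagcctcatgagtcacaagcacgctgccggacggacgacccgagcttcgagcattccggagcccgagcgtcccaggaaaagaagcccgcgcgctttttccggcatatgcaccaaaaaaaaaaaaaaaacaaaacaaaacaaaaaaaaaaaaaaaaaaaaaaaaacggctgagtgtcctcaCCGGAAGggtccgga

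Letters of 6 motifs, chosen after values of these genes had been seen, were searched on both strands in the 250 bases before and the first 50 bases after the outermost start of every gene tested. CCAAT was found in 6 of the 7 promoters, all but *Dhcr7*, against 38.6% of all 14346. It occurred 2 times each in *Sqle*, *Idi1* and *Ebp*, and in *Cyp51* it lay after the start, at base 21. GGGCGG, the GC box, was found in all 7, against 59.3%. CACNCCAC was found in *Sqle*, 242 bases before the start, and in *Insig1*, 9 bases before it, against 6.27% of all promoters. The longer form TCACNCCAC, which contains it, was in none of the 7 and in 1.16% of all. The E box CACGTG was in *Insig1* alone of the 7 (9.67% of all), and CCGGAAG in *Dhcr7* alone (15.7% of all). In the other 14 enzymes of the pathway, CCAAT was found in 11, GGGCGG in 12 and CACNCCAC in *Acat2* only. These matches describe the letters and do not show that a site is used.

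On mm9 the annotated genes span chr15:59146632-59162747 (*Sqle*, plus strand), chr5:28397952-28405201 (*Insig1*, plus), chr13:8884852-8891641 (*Idi1*, plus), chr10:75994333-76019883 (*Lss*, plus), chr5:4081145-4104746 (*Cyp51*, minus), chrX:7762455-7770638 (*Ebp*, minus) and chr7:151009050-151034315 (*Dhcr7*, plus). Per base of exon, the levels of the genes in the EtOH control ran from 32.4 ± 14.0 RPKM for *Insig1* (CPM per kilobase of the union of annotated exons, mean ± SD, n = 3) through 17.0 ± 4.11 for *Dhcr7*, 15.4 ± 0.634 for *Sqle* and 13.7 ± 2.73 for *Cyp51* to 6.94 ± 0.949 for *Lss*, 6.03 ± 0.782 for *Idi1* and 5.30 ± 0.667 for *Ebp*. In that order, the ranges given by the SD of neighbouring genes overlapped everywhere except between *Cyp51* and *Lss*. The order and that gap depend on the length used. The union of exons is 10787 bases for *Lss*, 5546 for *Sqle* and 4286 for *Cyp51*. Their longest coding transcripts aligned over 4104, 2524 and 3847 bases of the gene, so the levels do not rank the genes by transcript. Transcripts of *Insig1* and *Idi1* have near-identical copies elsewhere in the genome, with 1 and 3 alignments of at least 100 bases at 95% identity or more. The longest was 2040 bases for *Insig1* and 2494 bases for *Idi1*. Depending on how the reads were assigned, their counts may miss or include reads of those copies. The other 5 genes had no such copy. A long non-coding gene on the opposite strand overlaps *Lss*.

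The first comparison was of the 4OHT control, whose cells cannot delete Zbtb11, with the EtOH control. These groups differ in genotype as well as in drug, so the effect of 4OHT alone cannot be read from it. None of the 7 passed the test in the 4OHT control against the EtOH control (edgeR's quasi-likelihood test, 3 against 3 libraries, Benjamini-Hochberg adjusted p over all genes under 0.05), and none had an unadjusted p under 0.05. DESeq2 also called 0. In this comparison 2% of all genes were called lower and 2.05% higher. The 7 log2 fold changes ran from -0.03 to 0.14, with a median of 0.07 against 0.00 for all genes tested. In bulk RNA, fewer cells of a type and less RNA per cell cannot be told apart.

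*Ebp* encodes the isomerase that shifts the double bond of the sterol B ring. It was at 10.7, 13.7 and 12.3 CPM in replicates 1 to 3 of the EtOH control, at 10.8, 12.8 and 13.6 CPM in the *Zbtb11* KO and at 12.2, 13.7 and 13.5 CPM in the 4OHT control. The 3 groups overlapped, and replicate 1 was the lowest library in each. The log2 fold change was 0.10 (95% interval -0.20 to 0.41, adjusted p = 0.778) in the 4OHT control and 0.02 (-0.29 to 0.33, adjusted p = 1) in the *Zbtb11* KO, both against the EtOH control in edgeR. As percentages, the intervals ran from -13.2% to 32.7% in the 4OHT control and from -18.0% to 25.5% in the KO.

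*Sqle* encodes squalene epoxidase, which makes the first oxygenation of squalene. It was at 87.9, 87.2 and 81.5 CPM in the EtOH control, at 75.3, 77.5 and 72.6 CPM in the *Zbtb11* KO and at 93.2, 92.8 and 83.7 CPM in the 4OHT control. Its 3 KO libraries lay below all 6 others, and replicate 1 was not set apart. Of all genes, 4.02% lay without overlap below the EtOH control in the KO, and 11.8% below the 4OHT control. In the 4OHT control it was 0.07 higher than in the EtOH control on the log2 scale (-0.10 to 0.24, adjusted p = 0.707, edgeR), and these groups overlapped.

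*Insig1* encodes the retention protein of the SREBP complex. Its levels were 129, 64.0 and 64.8 CPM in the EtOH control, 105, 53.1 and 54.8 CPM in the *Zbtb11* KO and 144, 80.1 and 59.3 CPM in the 4OHT control. Replicate 1 was the highest library in each group, and the mean of replicate 1 was 2.01-fold that of replicates 2 and 3. By group alone the interval of its log2 fold change in the 4OHT control was wide (0.14, -0.79 to 1.06, adjusted p = 0.911, edgeR). With the replicate number as a block in the fit, the interval narrowed to -0.02 to 0.28 (log2 fold change 0.13, adjusted p = 0.184).

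*Cyp51* encodes the sterol demethylase that follows lanosterol. It stood at 72.1, 51.4 and 52.4 CPM in the EtOH control, at 57.4, 44.7 and 41.6 CPM in the *Zbtb11* KO and at 73.4, 55.9 and 46.5 CPM in the 4OHT control. Within each replicate number the KO library was the lowest of the 3, while across numbers the groups overlapped. Of all genes, 18.8% were lower in the KO than in the EtOH control in all 3 numbers, and 28.3% were lower than in the 4OHT control. The 4OHT control did not pass the test against the EtOH control (log2 fold change -0.00, -0.46 to 0.45, adjusted p = 0.999, edgeR).

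*Dhcr7* encodes the reductase that makes cholesterol from 7-dehydrocholesterol. It was at 82.2, 54.0 and 56.6 CPM in the EtOH control, at 66.2, 49.1 and 48.1 CPM in the *Zbtb11* KO and at 83.1, 64.7 and 54.6 CPM in the 4OHT control. As for *Cyp51*, replicate 1 was high in all groups and the KO library was the lowest within each number. In the 4OHT control the log2 fold change was 0.07 (-0.41 to 0.54, adjusted p = 0.912, edgeR).

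*Lss* encodes lanosterol synthase, which closes the sterol rings. It was at 86.7, 69.1 and 68.9 CPM in the EtOH control, at 75.7, 60.5 and 61.7 CPM in the *Zbtb11* KO and at 102, 72.7 and 67.8 CPM in the 4OHT control. The KO library was again the lowest within each number, and the groups overlapped. The fold change in the 4OHT control was 0.11 on the log2 scale (-0.28 to 0.50, adjusted p = 0.814, edgeR).

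*Idi1* encodes the isomerase of isopentenyl diphosphate, early in the pathway. It was at 18.6, 14.7 and 18.5 CPM in the EtOH control, at 15.5, 16.3 and 17.5 CPM in the *Zbtb11* KO and at 16.0, 18.7 and 16.0 CPM in the 4OHT control. The 3 groups covered nearly the same range, and replicate 1 overlapped the others. The log2 fold change was -0.03 (-0.31 to 0.25, adjusted p = 0.942) in the 4OHT control and -0.07 (-0.36 to 0.21, adjusted p = 1) in the *Zbtb11* KO, both from edgeR.

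**Figure D1:**
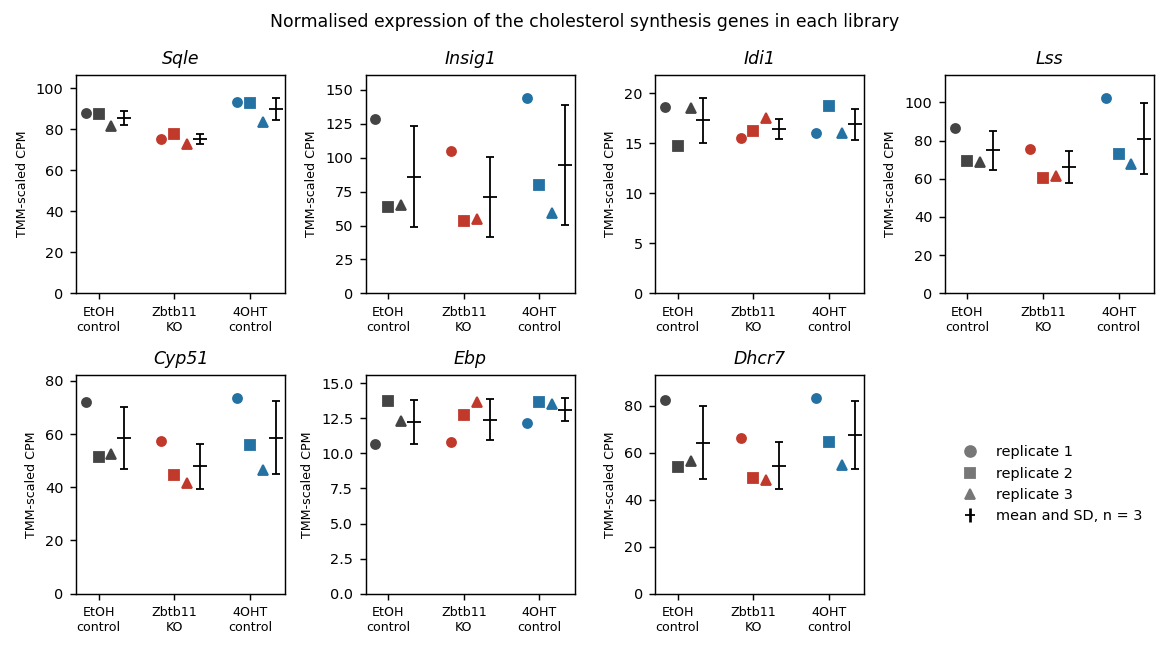
Normalised expression of the 7 genes in the 9 RNA-seq libraries. The vertical axes give TMM-scaled CPM from 0, colours mark the group, symbols the replicate number, and the black bar the mean with the SD (n = 3). Replicate 1 (circles) was above every replicate 2 and 3 library for *Insig1*, *Lss*, *Cyp51* and *Dhcr7* and below them for *Ebp* (18.3% and 17.5% of all genes tested).

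Replicate 1 was above all 6 libraries of replicates 2 and 3 for 4 of the 7 genes (*Insig1*, *Lss*, *Cyp51* and *Dhcr7*) and below them for *Ebp*. Of all genes tested, 18.3% were above in that way and 17.5% below. The ratio of the mean of replicate 1 to that of the others was 2.01 for *Insig1*, 1.42 for *Dhcr7*, 1.39 for *Cyp51* and 1.32 for *Lss*, and 0.846 for *Ebp*. For these 4 genes the difference between replicate numbers was larger than any difference between the groups. Because libraries with the same number deviated together, values from a fit with the replicate number as a block are given beside those of the fit by group alone wherever a call changes.

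In the *Zbtb11* KO against the EtOH control, none of the 7 genes passed the test by group alone, where 0.843% of all genes were called lower and 0.0558% higher. DESeq2 called 0 as well, and *Sqle* was the only one with an unadjusted p under 0.05. The log2 fold changes were -0.19 ± 0.07 for *Sqle* (SE, 95% interval -0.36 to -0.02), -0.27 ± 0.41 for *Insig1* (-1.20 to 0.65), -0.18 ± 0.17 for *Lss* (-0.57 to 0.20), -0.29 ± 0.20 for *Cyp51* (-0.75 to 0.16) and -0.24 ± 0.21 for *Dhcr7* (-0.71 to 0.24). With all 7, the median was -0.19, against 0.00 for all genes tested, and every adjusted p was 1. Only for *Sqle* did the groups not overlap, which was so, in the lower direction, for 4.02% of all genes.

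Within replicate numbers the pattern was more even. *Sqle*, *Insig1*, *Lss*, *Cyp51* and *Dhcr7* were lower in the KO than in the EtOH control in 3 of 3 replicates, 5 of the 7 genes against 18.8% of all genes. For *Insig1* the log2 ratio was -0.29, -0.27 and -0.24 in replicates 1, 2 and 3. For *Cyp51* it was -0.33, -0.20 and -0.33. With the replicate block, *Cyp51* fell by 18.2% in the KO (log2 fold change -0.29 ± 0.06, adjusted p = 0.00988, edgeR), while 1.79% of all genes were called lower and 0.46% higher. The other 4 did not pass: the adjusted p was 0.0626 for *Insig1*, 0.0707 for *Dhcr7*, 0.0796 for *Sqle* and 0.197 for *Lss*. Over replicates 2 and 3 alone, the block fit called none of the 7, *Cyp51* included.

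For the 4OHT control against the EtOH control the block changed no call. None of the 7 genes passed there, although 16.5% of all genes were called lower and 17% higher. The adjusted p was lowest for *Insig1* (0.184), and the fitted intervals of *Sqle* (-0.04 to 0.18), *Lss* (-0.03 to 0.22), *Cyp51* (-0.14 to 0.12), *Dhcr7* (-0.05 to 0.21) and *Ebp* (-0.10 to 0.29) all held 0. *Sqle* alone was higher than in the EtOH control in 3 of 3 replicates, a pattern met by 28.8% of all genes.

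The *Zbtb11* KO and the 4OHT control both received 4OHT, and their comparison tests the difference between the 2 comparisons above, with which it shares libraries. By group alone, none of the 7 genes passed in it (3.72% of all genes were called lower and 2.73% higher), with *Sqle* the nearest at -0.26 ± 0.08 (adjusted p = 0.0826, edgeR). DESeq2 called *Sqle* lower (adjusted p = 0.0156), with 5.67% of all genes. Leaving out replicate 1, edgeR called *Dhcr7* (adjusted p = 0.0344) and *Insig1* (adjusted p = 0.0417) lower, with 10.3% of all genes.

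With the replicate block, 5 of the 7 genes were lower in the *Zbtb11* KO than in the 4OHT control, against 18.1% of all genes called lower and 16.8% higher. *Insig1* fell by 23.9% (log2 fold change -0.39 ± 0.07, adjusted p = 0.000262, edgeR), *Dhcr7* by 19.0% (adjusted p = 0.000835), *Cyp51* by 17.8% (adjusted p = 0.00157), *Lss* by 17.6% (adjusted p = 0.00127) and *Sqle* by 16.3% (adjusted p = 0.000721). The 5 were lower in 3 of 3 replicates, as 28.3% of all genes were, and for *Sqle* the groups did not overlap (11.8% of all genes). *Idi1* (-0.05, -0.26 to 0.17) and *Ebp* (-0.08, -0.28 to 0.12) did not pass. Over replicates 2 and 3 alone the block fit also called 5 of the 7, with 15.7% of all genes. ESC markers moved in this fit too: 4 of the 6 were lower in the KO than in the 4OHT control, *Klf4* (-0.40 ± 0.06, adjusted p = 5.47e-05), *Esrrb* (-0.17 ± 0.05, adjusted p = 0.0149), *Zfp42* (-0.20 ± 0.06, adjusted p = 0.0232) and *Pou5f1* (-0.17 ± 0.06, adjusted p = 0.0348), and *Nanog* was higher (0.29 ± 0.06, adjusted p = 0.000365), in edgeR. Their part in the values of the 7 genes was not tested. In this comparison the groups differ in cell line as well as in the deletion, which cannot be told apart.

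**Figure D2:**
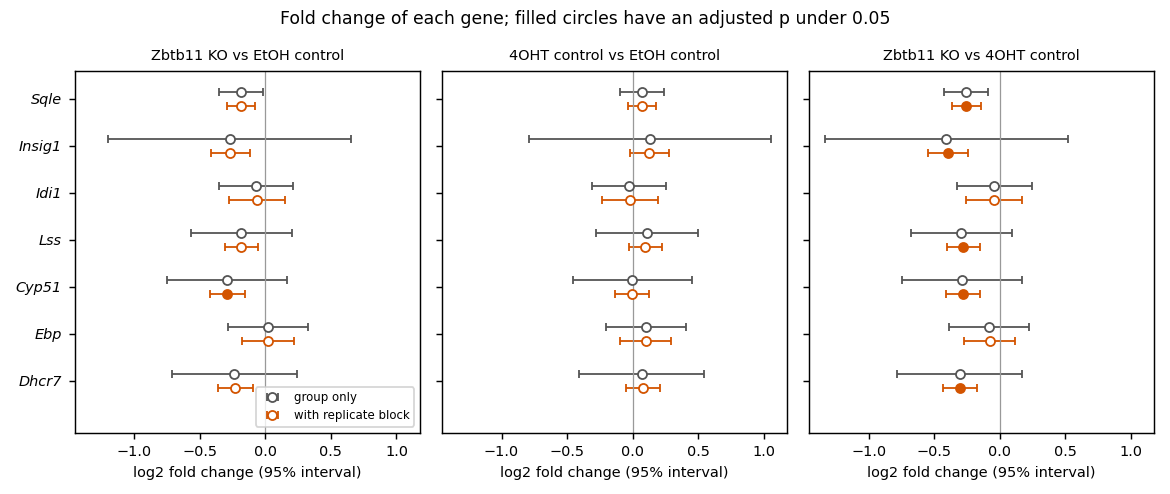
Log2 fold change of each gene with its 95% interval in the 3 comparisons, from the fit by group alone (grey) and the fit with the replicate number as a block (orange). Filled circles have an adjusted p under 0.05. Only *Cyp51* is filled in the left panel, none in the middle panel, and 5 of the 7 in the right panel.

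The other 14 enzymes of the pathway are given for comparison. By group alone none passed in any of the 3 comparisons, and their median log2 fold change was -0.12 in the *Zbtb11* KO and 0.10 in the 4OHT control, both against the EtOH control. With the block, 1 of the 14 was lower in the KO than in the EtOH control, *Sc4mol* (sterol C4 methyl oxidase, -0.33 ± 0.07, adjusted p = 0.00627). In the 4OHT control 4 were higher and 0 lower: *Sc4mol* (0.26 ± 0.07, adjusted p = 0.00509), *Mvk* (mevalonate kinase, 0.31 ± 0.09, adjusted p = 0.0141), *Lbr* (a sterol reductase that also anchors chromatin, 0.19 ± 0.06, adjusted p = 0.0179) and *Nsdhl* (0.23 ± 0.07, adjusted p = 0.0199), in edgeR. In the KO against the 4OHT control 9 were lower and 0 higher. Of all genes, 17% were called higher in the former and 18.1% lower in the latter. *Sc4mol* was at 74.1, 46.4 and 43.4 CPM in the EtOH control, 52.5, 40.3 and 35.8 CPM in the KO and 84.6, 62.8 and 48.1 CPM in the 4OHT control, so that within each replicate number the KO was lowest and the 4OHT control highest.

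**Figure D3:**
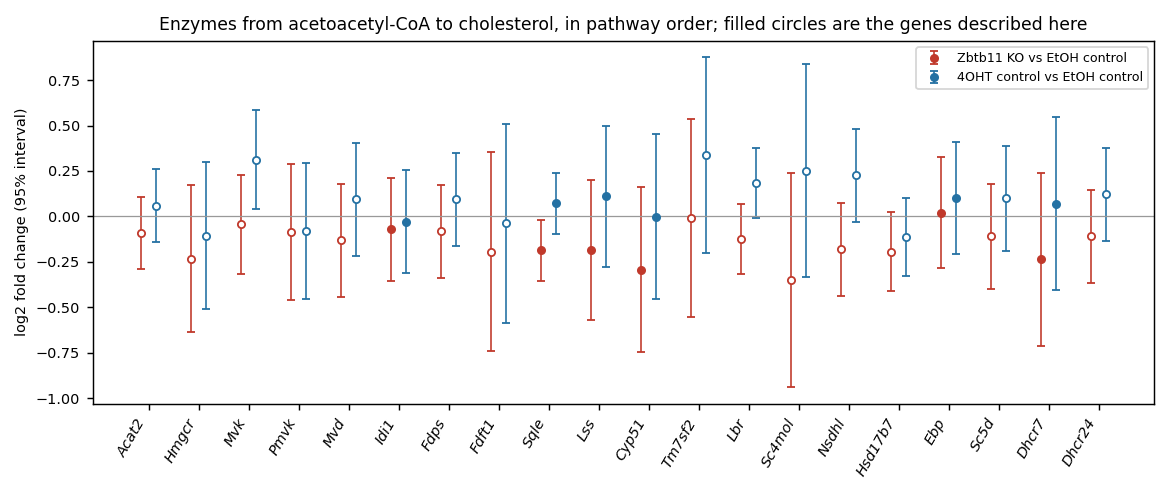
Log2 fold change with its 95% interval for 20 enzymes of cholesterol synthesis in pathway order, *Zbtb11* KO (red) and 4OHT control (blue) against the EtOH control, from the fit by group alone. Filled circles are 6 of the genes described here, without *Insig1*, which is no enzyme. No enzyme passed the test in either comparison, and *Ebp* is the only one with a value above 0 in the KO.

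Among the 6 genes of SREBP control, *Mbtps2* stood out. The site-2 protease gene was at 47.7, 45.6 and 48.7 CPM in the EtOH control, at 20.9, 19.8 and 18.2 CPM in the *Zbtb11* KO and at 34.1, 40.4 and 46.1 CPM in the 4OHT control, with no overlap between the KO and the other groups. It fell by 58.5% in the KO against the EtOH control (log2 fold change -1.27 ± 0.12, adjusted p = 0.000522) and by 51.2% against the 4OHT control (-1.04 ± 0.12, adjusted p = 0.000944), in edgeR. *Yy2*, a gene on the same strand, lies within *Mbtps2*, and reads may be shared or left out there. *Mbtps1*, the site-1 protease gene, was higher in the 4OHT control (231, 233 and 235 CPM) than in the EtOH control (158, 156 and 163 CPM), by 0.55 ± 0.07 on the log2 scale (adjusted p = 0.00352). It did not pass in the KO against the EtOH control (0.03 ± 0.07, adjusted p = 1). Against the 4OHT control *Mbtps1* was lower in the KO (-0.53 ± 0.07, adjusted p = 0.0018, edgeR), where 3.72% of all genes were called lower. *Srebf1*, *Srebf2*, *Scap* and *Insig2* did not pass in any comparison by group alone. With the block, *Mbtps2* was lower (-0.23 ± 0.08, adjusted p = 0.0346) and *Srebf1* higher (0.13 ± 0.05, adjusted p = 0.0498) in the 4OHT control than in the EtOH control, and *Insig2* (-0.28 ± 0.09, adjusted p = 0.0227) and *Srebf2* (-0.17 ± 0.06, adjusted p = 0.0335) were lower in the KO than in the 4OHT control, all in edgeR. With the block, 16.5% of all genes were called lower and 17% higher in the 4OHT control than in the EtOH control. In the KO against the 4OHT control 18.1% were called lower. Whether the level of *Mbtps2* bears on the 7 genes was not tested.

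In sterol uptake and transport, none of 7 genes passed by group alone. With the block, *Scarb1*, a receptor for high-density lipoprotein (-0.38 ± 0.06, adjusted p = 9.54e-05), *Stard4* (-0.30 ± 0.07, adjusted p = 0.00183) and *Npc1* (-0.21 ± 0.06, adjusted p = 0.00829) were lower in the KO than in the 4OHT control, and *Npc2* was higher (0.37 ± 0.07, adjusted p = 0.000177), in edgeR. In that fit 18.1% of all genes were called lower and 16.8% higher. In the 4OHT control against the EtOH control, *Scarb1* and *Npc1* were then higher and *Npc2* lower (17% and 16.5% of all genes). Of 14339 genes ranked by the Pearson correlation of their log2(CPM + 1) with the mean z-score of the 7 genes over the 9 libraries, *Arhgap10* (r = 0.97), *Sc4mol* (0.96), *Gm10332* (0.96) and *Sykb* (0.96) were among the 5 highest. Of the 7 genes themselves, *Dhcr7* (r = 0.93), *Cyp51* (0.92), *Lss* (0.91), *Insig1* (0.86) and *Sqle* (0.83) followed that mean, which they are part of. *Idi1* (0.33) and *Ebp* (-0.37) did not. The 9 points share replicate numbers.

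In fatty acid synthesis, also driven by SREBP, none of 11 genes passed against the EtOH control by group alone, and *Scd2*, a stearoyl-CoA desaturase, was lower in the KO than in the 4OHT control (-0.52 ± 0.13, adjusted p = 0.0474, edgeR). With the block, 6 of the 11 were higher and 1 was lower in the 4OHT control than in the EtOH control (17% and 16.5% of all genes), and 7 were lower and 1 higher in the KO than in the 4OHT control (18.1% and 16.8% of all genes). *Scd1* was 29.8% higher in the 4OHT control than in the EtOH control (0.38 ± 0.07, adjusted p = 0.000266, edgeR). In the KO it was 16.9% lower than in the EtOH control (-0.27 ± 0.07, adjusted p = 0.0457, edgeR), with 1.79% of all genes called lower.

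Of the other proteins known to bind 4OHT, *Esrrb* was abundant in every group, from 448 to 634 CPM, and did not pass in any comparison by group alone. With the block it was lower in the KO than in the 4OHT control (-0.17 ± 0.05, adjusted p = 0.0149, edgeR). *Esr1*, the oestrogen receptor gene, had 66, 83 and 85 reads in the EtOH control, 46, 62 and 64 in the KO and 2, 1 and 1 in the 4OHT control, which passed in edgeR against the EtOH control (adjusted p = 6.24e-05) and against the KO (adjusted p = 2.48e-05). The *Esr1* reads thus went with the line that carries ERt2-Cre, a fusion of Cre with part of an oestrogen receptor. Where in the gene they fell cannot be read from gene counts. *Esr2* and *Esrrg* were below the filter. *Col1a2*, a fibroblast marker, also differed with the cell line: its fitted level in the 4OHT control was 0.25 times that in the EtOH control (adjusted p = 0.00505, edgeR). With the block, *Thy1*, of the same list, was higher there (0.61 ± 0.12, adjusted p = 0.000455), and in the KO against the 4OHT control *Col1a2* and *Col1a1* were higher and *Thy1* lower. The part of these markers in the values above was not tested.

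Zbtb11 peaks were then sought at the promoters, from 2 kb upstream to 500 bases downstream of any annotated start. None of the 7 genes had a consensus Zbtb11 peak there, nor did any of the other 14 enzymes, against 31.1% of the genes tested. The nearest peak to a start was 7.68 kb away for *Sqle* and 13.9 kb away for *Idi1*, both upstream, and 62.1 to 299.7 kb away for the other 5 genes. The one near *Sqle* was weak, with a mean coverage of 26.7 over the 4 Zbtb11 libraries in the authors' normalised units.

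Of the 6 genes of SREBP control, 3 had a consensus peak. *Mbtps2* had one over its outermost start (chrX:154036033-154037232), centred 15 bases after it. Its coverage was 429, 611, 438 and 713 in the 4 Zbtb11 libraries and 644, 633 and 397 in the 3 FLAG-Zbtb11 libraries, so that neither antibody stood apart. By mean coverage with the Zbtb11 antibody (548 ± 138, SD, n = 4) it ranked 427 of 7500 consensus peaks. The CCGGAAG shown in capitals lay 15 bases before that start, inside the peak. A weaker one (32.1 ± 20.7) lay over an inner start, beside that of *Yy2*. *Insig2*, a relative of *Insig1*, had a peak of 253 ± 23.6 and *Srebf1* one of 178 ± 40.9, neither with a call by group alone in the expression data. Both of these peaks lay at inner annotated starts, outside the promoter window of the outermost start.

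**Figure D4:**
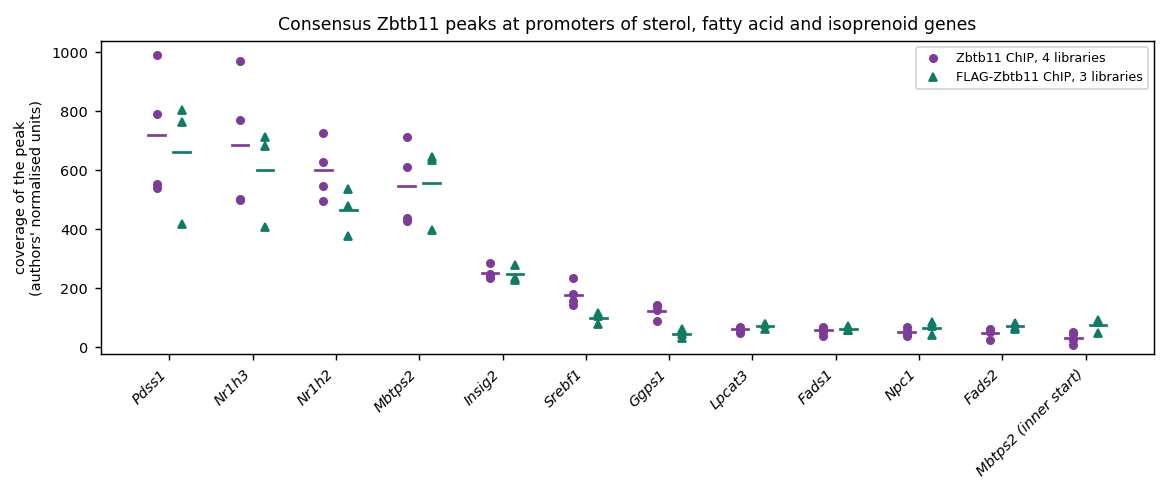
Coverage of consensus Zbtb11 peaks at promoters of the genes of SREBP control, sterol transport, sterol efflux, fatty acid synthesis and isoprenoid synthesis, in the authors' normalised units. Circles are the 4 Zbtb11 libraries, triangles the 3 FLAG-Zbtb11 libraries, and lines their means. The 7 genes described here and the other 14 enzymes of the pathway have no such peak and are absent from the plot, while *Mbtps2* has a mean of 548.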

How the data were processed

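The RNA-seq part comprises 9 ESC libraries and the ChIP-seq part 7. The deposited counts per gene are whole and not normalised. The authors trimmed 75-base paired-end reads from rRNA-depleted directional libraries, aligned them with STAR and counted with HTSeq. The strand setting is not given in the sources used here. The deposited peak coverage (signal) is in the normalised units that the authors obtained from DiffBind, for reads aligned to mm9 with Bowtie 1.1.2 and peaks called with MACS2 in a pipeline that keeps peaks reproducible between replicates (IDR < 0.02). All genes and coordinates follow GENCODE vM1 on mm9, the build of the files, and sequences were read from that genome.

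Differential expression was tested with edgeR 4.0.16 in R 4.3.3 (quasi-likelihood F test, legacy form, TMM, more than 1 CPM in at least 3 libraries, all 9 libraries in 1 fit, two-sided, Benjamini-Hochberg over all genes, threshold 0.05). Intervals are 95% from that fit. CPM are scaled by TMM, with 1 added before logarithms in the correlations. The fit was first tested on simulated counts. Replicate numbers come from the sample titles. Deviations of same-numbered libraries from their group means correlated at 0.51 to 0.86 in all 9 pairs, against -0.79 to 0.58 for different numbers, so a fit with the replicate number as a block was run too. Alternatives were DESeq2 1.42.0, library sizes in place of TMM, other filters, the newer quasi-likelihood form, only the groups compared, and leaving out each replicate. Copies elsewhere in the genome were sought with blastn 2.17.0. Genes named are the 7, the pathway lists given, with values for those past the threshold or at most 4 per list, the markers, and those of the 5 genes with the most similar pattern that are reported. One gene that these rules name is not reported here. The genes, lists and motifs were chosen with earlier results of these data known.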

Additional observations from a re-analysis of the deposited data

How the results depend on the processing

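By group alone, none of the 7 genes passed in any comparison, also with library sizes in place of TMM, without the filter, above 5 CPM, in the newer quasi-likelihood form, with only the groups compared, and at an adjusted p of 0.01. With the replicate block the count was 1 for the *Zbtb11* KO against the EtOH control, 0 for the 4OHT control against the EtOH control and 5 for the KO against the 4OHT control, where it was also 5 with the replicate block over replicates 2 and 3, and 1 with DESeq2. Leaving out 1 replicate at a time gave 0 to 2 for the KO against the 4OHT control (2 without replicate 1) and 0 in the other comparisons. Of the fold changes under an alternative, 206 kept direction and side of the threshold, 14 passed the threshold and 11 changed sign. Those that changed sign were for the KO against the EtOH control *Idi1* (0.0263 with the replicate block over replicates 2 and 3, and -0.1715 to 0.0245 leaving out 1 replicate at a time) and *Ebp* (-0.0511 to 0.0894 leaving out 1). For the 4OHT control against the EtOH control they were *Idi1* (0.0735 with that block, and -0.2149 to 0.0702 leaving out 1), *Cyp51* (0.0074 with library sizes, 0.0022 above 5 CPM, and -0.0583 to 0.0659 leaving out 1) and *Dhcr7* (-0.0142 to 0.117 leaving out 1), and for the KO against the 4OHT control *Idi1* (-0.1297 to 0.0435 leaving out 1). The cause was not tested. The count of promoter peaks was 0 for the 7 genes within 1 kb or 5 kb on each side, in all Zbtb11 peaks, in all FLAG-Zbtb11 peaks, with 300 bases of overlap and for the outermost start alone. Coverage at a promoter peak of the 7 genes could not be given, since none had one. Counts of low genes such as *Ebp* and 3 libraries a group limit the precision, which the intervals of the fits give.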

Other observations

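In the list of LXR, the nuclear receptor for oxysterols, and efflux, *Abca1*, which exports cholesterol, was at 23.1, 26.1 and 26.3 CPM in the EtOH control, 22.4, 27.6 and 24.6 CPM in the *Zbtb11* KO and 40.5, 38.3 and 31.9 CPM in the 4OHT control. It was higher in the 4OHT control than in both other groups (0.55 ± 0.12 against the EtOH control, adjusted p = 0.0391, edgeR), and was the only one of the 6 tested genes of that list to pass by group alone. *Soat1*, which esterifies cholesterol, was at 99.2, 66.3 and 75.3 CPM in the EtOH control and 69.2, 40.8 and 38.3 CPM in the 4OHT control, and passed with the replicate block (-0.73 ± 0.07, adjusted p = 1.46e-07, edgeR). *Lpcat3*, of the same list, was lower there too (-0.53 ± 0.07, adjusted p = 1.29e-05, edgeR), and 16.5% of all genes were called lower.

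*Pdss1*, which makes the isoprenoid tail of coenzyme Q, had one of the strongest promoter peaks of all the lists, at 718 ± 215 in the 4 Zbtb11 libraries (rank 163 of 7500). It was at 11.1, 19.4 and 19.5 CPM in the EtOH control, 9.995, 13.5 and 13.3 CPM in the *Zbtb11* KO and 11.8, 16.7 and 21.2 CPM in the 4OHT control. With the replicate block it was lower in the KO than in the EtOH control (-0.43 ± 0.10, adjusted p = 0.0187, edgeR), as were 1.79% of all genes. By group alone it did not pass there (-0.44 ± 0.27, adjusted p = 1). Against the 4OHT control the block fit also called *Pdss1* lower in the KO (-0.42 ± 0.10, adjusted p = 0.00293, edgeR), with 18.1% of all genes. By group alone it did not pass in that comparison either (adjusted p = 0.443, edgeR).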
